A study of Mus musculus with 2 samples.

Results

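Called nucleosomes were examined in a pair of imprinted domains of mouse embryonic stem (ES) cells, the H19-Igf2-Kcnq1ot1 domain at chr7:149740000-150600000 and the Dlk1-Meg3 domain at chr12:110650000-111500000 (mm9). The members are all lines of the deposited nucleosome lists whose centre, the midpoint of start and end, lies in either interval. They number 2113 of 1300009 calls in the ethanol library and 2162 of 1424844 in the tamoxifen library. The cells are Brg1fl/fl ES cells with a tamoxifen-inducible Cre (Actin-CreER), grown in serum-LIF medium. Brg1, the product of Smarca4, is the ATPase of the esBAF chromatin remodeling complex. The tamoxifen group was exposed to the drug at 0.8 µM over 24 hours, followed by 48 hours in medium without it. The ethanol group carries the same alleles and the same Cre and got ethanol in place of the drug. The series asks how esBAF bears on nucleosome positions near binding sites of pluripotency factors. Chromatin was cut with micrococcal nuclease (MNase), which digests linker DNA, and mononucleosome DNA of the 12 U digest was sequenced. With 1 library in each group there is no replicate check, and p-values were not computed. The 95% intervals hold counting error alone, and the depth in reads is unknown. Only nucleosomes that passed the cutoffs of the authors are listed, so fewer nucleosomes and fewer that pass cannot be told apart. The lists do not measure how much Brg1 was lost.

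In an imprinted domain, genes are expressed from a single parental allele, under the control of regions that carry DNA methylation from the germ line. In the first domain the maternal allele transcribes H19, a long noncoding RNA, and the paternal allele transcribes Igf2, a fetal growth factor, with CTCF bound to the unmethylated maternal control region between them. Further along, the paternal allele transcribes Kcnq1ot1, a long noncoding RNA antisense to the potassium channel gene Kcnq1 that silences neighbouring genes. In the second domain Dlk1, a delta-like transmembrane protein, is expressed from the paternal allele. Meg3, a long noncoding RNA, Rian, a host transcript of small nucleolar RNAs, and Mirg, a host transcript of microRNAs, are expressed from the maternal allele. The lists do not separate the parental alleles, so each value below is a sum over both.

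The domains differ in gene content between their outermost named genes. In the RefSeq gene table, which is on GRCm38.p6 and was used for names and order only, 21 genes lie from H19 to Kcnq1ot1, 9 of them protein-coding, among them Igf2, Ins2, Th, Ascl2, Cd81 and Kcnq1. From Dlk1 to Mirg there are 89, of which 60 are microRNA genes, 19 small nucleolar RNA genes and 2, Dlk1 and Rtl1, protein-coding. Genes of the intervals outside these spans were not counted. Since the nucleosome lists are on mm9, no call was assigned to a gene, exon or intron, and positions within a domain are given as distances from its start. The promoters of the long noncoding RNAs Kcnq1ot1 and Meg3 are shown because parental methylation differs at both. That of Kcnq1ot1 lies in the germ-line control region of its domain, and that of Meg3 gains methylation on the paternal allele after fertilization. They are RefSeq sequences of 300 bases, from 250 before to 50 after the start of the gene, on GRCm38.p6, at chr7:143296498-143296797 on the minus strand and chr12:109540746-109541045 on the plus strand. Of the 7 genes that name the domains, 6 have an entry in the RefSeq promoter table, and H19 is the other. Capitals mark CCAAT in the first promoter, searched on both strands, and the cAMP response element TGACGTCA, which reads the same on both strands, in the second.

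Kcnq1ot1: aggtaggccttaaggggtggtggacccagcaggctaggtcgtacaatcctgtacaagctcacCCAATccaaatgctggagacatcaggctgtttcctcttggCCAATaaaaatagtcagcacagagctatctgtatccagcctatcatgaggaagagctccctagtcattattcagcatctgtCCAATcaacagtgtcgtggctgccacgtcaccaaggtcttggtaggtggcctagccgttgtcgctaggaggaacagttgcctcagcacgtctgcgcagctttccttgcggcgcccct
Meg3: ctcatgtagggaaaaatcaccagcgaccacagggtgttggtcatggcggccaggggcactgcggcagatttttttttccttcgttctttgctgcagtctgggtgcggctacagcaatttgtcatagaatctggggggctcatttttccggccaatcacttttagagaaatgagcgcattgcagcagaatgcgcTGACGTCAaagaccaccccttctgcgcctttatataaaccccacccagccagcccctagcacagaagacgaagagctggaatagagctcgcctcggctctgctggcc

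The Kcnq1ot1 promoter holds 3 CCAAT matches and 9 CG dinucleotides. The Meg3 promoter holds 1 match to TGACGTCA, 1 to CCAAT, left unmarked, and 13 CG dinucleotides. Of 32851 promoters of the same length, 37.4% hold CCAAT and 1.79% hold TGACGTCA, and the median number of CG dinucleotides is 7. These matches describe the letters and are not sites of a factor, and the calls below were not placed on them.

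Fewer nucleosomes were called in the H19-Igf2-Kcnq1ot1 domain after tamoxifen, while the list as a whole was longer. The domain held 927 calls with ethanol (exact Poisson interval 868 to 989) and 879 with tamoxifen (822 to 939), which is 0.948 times as many, whereas the whole tamoxifen list had 1.096 times as many calls as the ethanol list. Scaled to the lists, the log2 ratio of tamoxifen over ethanol was -0.21 (exact Clopper-Pearson interval -0.34 to -0.07). Calls in the Dlk1-Meg3 domain were more numerous, like the list, going from 1186 (1119 to 1255) to 1283 (1214 to 1355), a log2 ratio of -0.02 (-0.13 to 0.10). The difference between the domains was -0.19 (-0.37 to -0.01) on the log2 scale. The interval of this difference comes close to 0, and neighbouring calls are not independent counts.

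The ratio of the H19-Igf2-Kcnq1ot1 domain was lower than that of any other window examined on chromosome 7. Among 163 other windows of 860 kb with at least 100 calls, the log2 ratio ran from -0.14 to 0.49 with a median of 0.03, and 0 of them lay below the domain. With windows placed every 20 kb outside the domain, which overlap each other, 0 of 6921 lay below it, the lowest being at -0.19. Only 1 of the 163 windows also had fewer calls with tamoxifen before scaling. The adjoining windows had ratios near 0. The window before the domain had 1049 and 1135 calls, a log2 ratio of -0.02 (-0.14 to 0.10), and the window after it 1127 and 1235 calls, a ratio of -0.00026 (-0.12 to 0.12).

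The domains were also set beside windows with at least as many calls in both libraries together, a choice made after the values had been seen. On chromosome 7 there were 19 such windows, with log2 ratios from -0.13 to 0.03 and a median of -0.05, which is under the median of 0.03 of all windows. All 19 lay above the H19-Igf2-Kcnq1ot1 domain. Over all autosomes, 10 of 2794 other windows of 860 kb lay below the domain, and 0 of the 337 at least as dense. Of the 138 other windows of 850 kb on chromosome 12, 36 lay below the Dlk1-Meg3 domain and 102 above it. Of the 24 at least as dense, 20 lay below it, with a range of -0.15 to 0.03 and a median of -0.05. With 1 library per group, it cannot be told whether another pair of cultures would give the same rank.

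**Figure D1:**
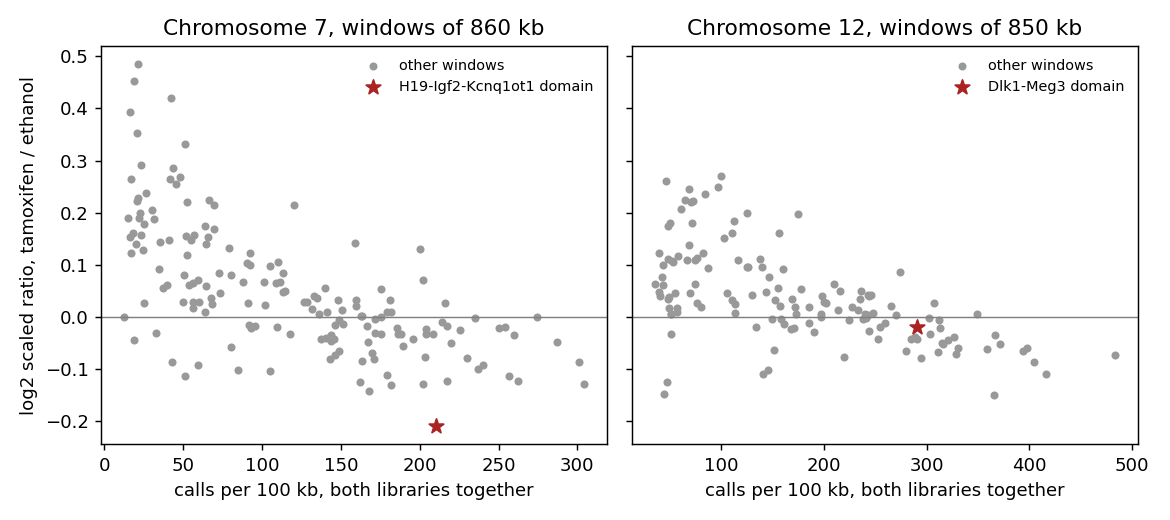
Each point is a window of 860 kb on chromosome 7 (left) or 850 kb on chromosome 12 (right), by the calls of both libraries per 100 kb (x axis) and the log2 ratio of tamoxifen over ethanol calls scaled to the whole lists (y axis); stars are the domains. The star of the H19-Igf2-Kcnq1ot1 domain lies at -0.21, under all 163 other windows, while that of Dlk1-Meg3 lies at -0.02, among the other windows.

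Both domains were rich in called nucleosomes for their chromosomes, but held fewer calls than the adjoining windows of their length. In the H19-Igf2-Kcnq1ot1 domain there were 107.8 calls per 100 kb with ethanol (101.0 to 115.0) and 102.2 with tamoxifen (95.6 to 109.2). The other windows of chromosome 7 had medians of 50.6 and 56.9, so the domain stood at 2.13 and 1.80 times the median. Of 166 other windows, 15 were denser with ethanol and 25 with tamoxifen. The Dlk1-Meg3 domain had 139.5 calls per 100 kb with ethanol (131.7 to 147.7) and 150.9 with tamoxifen (142.8 to 159.4), against medians of 74.4 and 83.5 on chromosome 12. It stood at 1.88 and 1.81 times the median, and 25 and 22 of 138 other windows were denser. The relative density of the chromosome 7 domain was thus lower with tamoxifen while that of the chromosome 12 domain was nearly level. The windows before and after the chromosome 7 domain held 1049 and 1127 ethanol calls, against 927 in it. With tamoxifen they held 1135 and 1235, against 879. Those beside the chromosome 12 domain held 1300 and 1646 ethanol calls, against 1186, and 1376 and 1731 tamoxifen calls, against 1283.

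Calls along the H19-Igf2-Kcnq1ot1 domain were unevenly spread, in the same way in both libraries. Over the 43 steps of 20 kb, the number of calls per step ran from 0 to 55 with ethanol (median 20) and from 0 to 45 with tamoxifen (median 21), and the libraries correlated with r = 0.946 (Spearman 0.936) over these steps of the same 2 libraries. Described by stretches whose borders were set after the counts had been seen, the first 140 kb held 120.7 and 103.6 calls per 100 kb with ethanol and tamoxifen. The next 200 kb were sparse, with 29.0 and 28.0. A dense stretch of 320 kb followed, with 158.1 and 148.8. After a nearly empty 40 kb with 5 and 4 calls, the last 160 kb held 118.1 and 123.8 calls per 100 kb.

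Since the borders were set with the counts known, the ratios by stretch are a description, and differences between stretches were not tested. The log2 ratio was -0.35 in the first 140 kb, where 169 calls became 145, and -0.22 in the dense 320 kb, where 506 became 476. In the last 160 kb, 189 calls became 198, a ratio of -0.07. The first 4 steps, 80 kb in all, were picked out after their low ratios had been seen and had 119 and 92 calls, a log2 ratio of -0.50, which is a description. Without them the domain kept a ratio of -0.17, with 808 and 787 calls. Leaving out each step in turn, also added after the values had been seen, gave -0.23 to -0.19.

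Step by step, the tamoxifen library had fewer calls before scaling in 22 of the 38 steps with at least 10 calls, more in 13 and as many in 3. On the rest of chromosome 7, 28.9% of such steps had fewer, a smaller share than 22 of 38. The steps hold the same calls as the ratio of the whole domain, so this count is no separate result. Over all steps, those under 10 calls included, both libraries together had a median of 20 calls outside the domain and 41 in it. Shares of steps are thus not set at equal numbers of calls. Steps past 1.5-fold after scaling were few. In the domain 4 steps were lower and 1 was higher by this limit, where the rest of chromosome 7 had 4.8% lower and 7.75% higher. The lowest were the steps 280 to 320 kb from the start, with 8 ethanol and 5 tamoxifen calls each (chr7:150020001-150040000 and chr7:150040001-150060000). The log2 ratio of each was -0.81, and its interval, -2.77 to 0.98, holds 0. The step at chr7:149960001-149980000 had the highest ratio, with 3 and 9 calls, a log2 ratio of 1.45 (-0.55 to 3.97). Of these, only a step in the first stretch, chr7:149800001-149820000, held 20 calls or more, with 31 ethanol and 21 tamoxifen calls and a log2 ratio of -0.69 (-1.57 to 0.15).

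**Figure D2:**
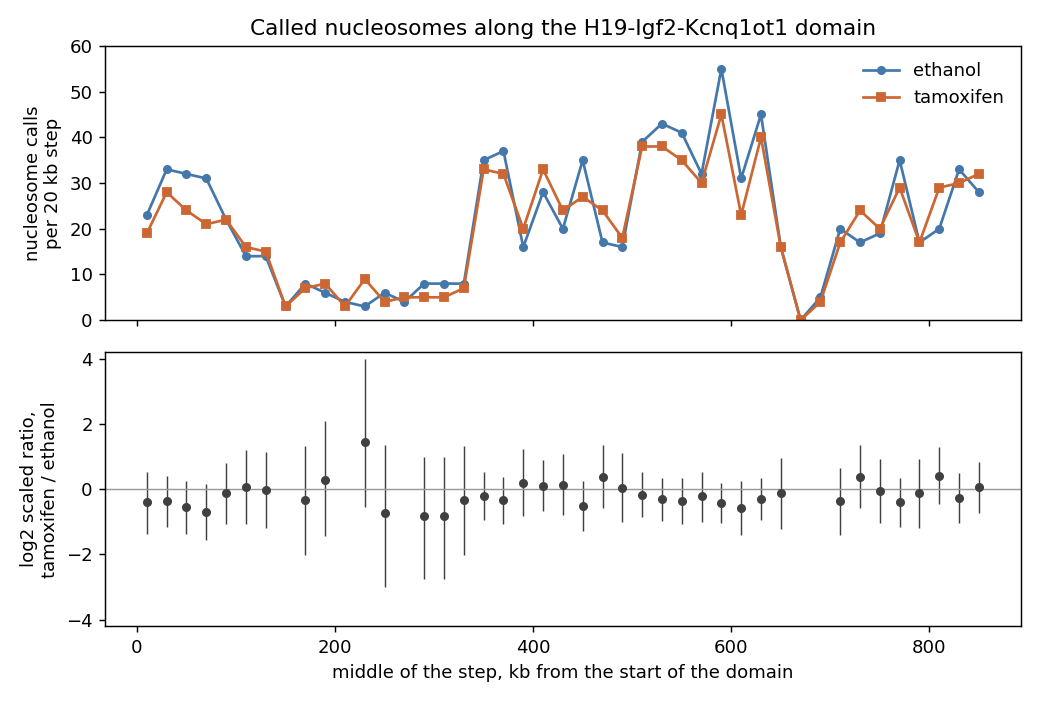
Called nucleosomes per 20 kb step (top) and the log2 ratio of tamoxifen over ethanol scaled to the lists, with 95% exact intervals, for steps with at least 10 calls (bottom), by distance from the start of the H19-Igf2-Kcnq1ot1 domain. The libraries follow each other from the sparse stretch at 140 to 340 kb to the peak of 55 and 45 calls at 580 to 600 kb, with ethanol above tamoxifen in 22 of the 38 steps.

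The densest step of the domain, chr7:150320001-150340000, had 55 ethanol and 45 tamoxifen calls. In it, 42 pairs of successive ethanol calls were neighbours, 140 to 400 bp apart, and 27 pairs of tamoxifen calls were. Some other steps had more with tamoxifen, as chr7:150540001-150560000 with 5 and 16. Over the whole domain the neighbour share differed by -1.69 points (-6.22 to 2.84), an interval that holds 0. The densest step was followed by chr7:150360001-150380000 with 45 and 40 calls and chr7:150260001-150280000 with 43 and 38. All 3 had fewer calls with tamoxifen, and the interval of each ratio holds 0. At the other end, chr7:150400001-150420000 had 0 calls in either library. Across it, the longest stretch with no call in either library ran 25340 bp from centre 150396846 to 150422186. A single tamoxifen call at 150422186 ended it, and in the ethanol list the empty stretch went on to 150437846, 41000 bp in all. Whether these bases could be mapped or called at all was not tested.

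Calls along the Dlk1-Meg3 domain followed each other with small differences in both directions. The 42 full steps held 8 to 47 ethanol calls (median 28) and 10 to 47 tamoxifen calls (median 29.5), with r = 0.887 (Spearman 0.855) over the steps. A last piece of 10 kb had 27 calls in each library. Before scaling, 28 of the 42 steps had more calls with tamoxifen, 11 had fewer and 3 as many. Fewer calls were found in 23% of such steps on the rest of chromosome 12, close to the 11 of 42 in the domain. After scaling, 21 steps lay above and 21 below 0, and 0 passed 1.5-fold in either direction, against 6.52% higher and 3.4% lower on the rest of the chromosome. Over all full steps, those under 10 calls included, both libraries together had a median of 29 calls outside the domain and 56.5 in it. These shares are thus not set at equal numbers of calls, and no steadiness of the domain is read from them. The highest ratio, 0.54 (-0.27 to 1.38), was at chr12:111290001-111310000 with 22 and 35 calls. The lowest, -0.51 (-1.29 to 0.26), was at chr12:110730001-110750000 with 35 and 27. Neither interval leaves out 0.

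The sparse part of this domain lay 180 to 280 kb from its start, with 56.0 calls per 100 kb with ethanol and 71.0 with tamoxifen (log2 ratio 0.21). The densest part was the last 350 kb, with 168.9 and 188.0. No call-free stretch approached those of chromosome 7. The longest shared one, from centre 110884941 to 110892611, was 7670 bp. The densest step, chr12:111150001-111170000, had 47 and 46 calls, and the sparsest, chr12:110890001-110910000, had 8 and 10.

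**Figure D3:**
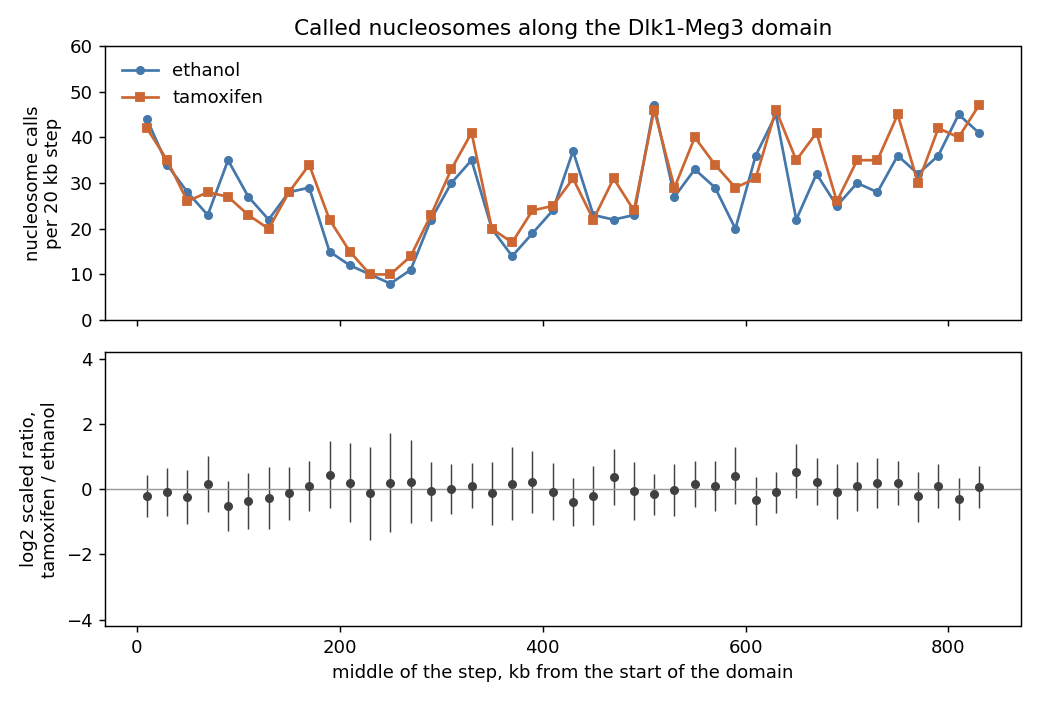
Called nucleosomes per full 20 kb step (top) and log2 ratio of tamoxifen over ethanol scaled to the lists, with 95% exact intervals (bottom), by distance from the start of the Dlk1-Meg3 domain. The libraries lie between 8 and 47 calls per step, and the ratios lie on both sides of 0, between -0.51 and 0.54.

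The scores of the calls, a value the authors give to each called nucleosome, had similar medians in both lists and differed more between the domains. The definition of the score is not known, so scores of the 2 lists are set side by side as deposited. In the H19-Igf2-Kcnq1ot1 domain the median score was 86.8 with ethanol (quartiles 65.3 and 129.5) and 86.0 with tamoxifen (65.3 and 126.7), against 85.8 and 84.6 on the rest of chromosome 7. In the Dlk1-Meg3 domain it was 98.8 (70.9 and 151.1) and 101.6 (70.9 and 157.7), against 98.2 on the rest of chromosome 12 in each list. Calls in the top 10% of their list made up 9.60% of the ethanol calls (Wilson interval 7.87 to 11.7%) and 9.22% of the tamoxifen calls (7.48 to 11.3%) in the first domain, against 8.64 and 8.46% on the rest of chromosome 7. In the second they made up 14.8% (12.9 to 17.0%) and 16.1% (14.2 to 18.3%). On the rest of chromosome 12 these shares were 14.9 and 15.5%. Tamoxifen calls in the first domain were fewer at each level of the score. In 4 equal classes by the scores of each list, from the lowest, it had 217, 231, 240 and 239 ethanol calls and 211, 223, 228 and 217 tamoxifen calls.

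Most of the highest-scoring calls of both domains had a close counterpart in the other library. Of the 5 calls with the highest score in each library, 4 of 5 had a partner, a call of the other library with its centre within 20 bp, for each library in the chromosome 7 domain. On chromosome 12, 5 of 5 ethanol calls and 4 of 5 tamoxifen calls had one. On the rest of each chromosome 61.8 to 65.2% of the calls in the highest of 4 equal score classes had a partner. The named calls are a narrower class, each above at least 98.75% of its list. The shares are therefore not comparable, and no trait of the domains is read from these few calls. The strongest of all, 33.0 kb into the Dlk1-Meg3 domain, was listed at chr12:110682961-110683061 with a score of 1647 in the ethanol list. In the tamoxifen list it was at chr12:110682971-110683061 with 1618, a shift of the centre by 5 bp. Near the other end of this domain, chr12:111484341-111484441 scored 1124 with ethanol, and its partner 5 bp away scored 1481 with tamoxifen. In the H19-Igf2-Kcnq1ot1 domain the call at chr7:150272521-150272621 had the same start and end in both lists, with scores of 622.6 and 905.8.

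A few strong calls differed in place or in rank. The ethanol call at chr7:150158451-150158571 scored 474.8, and the nearest tamoxifen call, at chr7:150158401-150158491, scored 484.4 with its centre 65 bp away. In the other domain the tamoxifen call at chr12:111289231-111289421 scored 988.6, and the nearest ethanol call, 30 bp away at chr12:111289301-111289411, scored 441.3. The tamoxifen call at chr7:150105301-150105391, with 505.2, lay above 98.95% of the tamoxifen list, while its ethanol partner 5 bp away scored 92.2, above 54.77% of the ethanol list. These were picked out from the named calls after their values had been seen.

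Sharing of positions was at the level of the chromosome for ethanol calls in both domains. In the H19-Igf2-Kcnq1ot1 domain, 400 of 927 ethanol calls, 43.2% (Wilson interval 40 to 46.4%), had a tamoxifen partner, against 43.2% (42.8 to 43.5%) on the rest of chromosome 7. When all ethanol positions were moved by 10 distances from 1000 to 10000 bp, 4.53 to 7.55% had one. Of the Dlk1-Meg3 calls, 623 of 1186 ethanol calls, 52.5% (49.7 to 55.4%), had a partner, against 50.06% (49.8 to 50.4%) on the rest of chromosome 12 and 5.48 to 8.09% when moved. Of the tamoxifen calls, 45.5% (42.2 to 48.8%) in the first domain and 48.6% (45.8 to 51.3%) in the second had an ethanol partner, against 39.4% (39.1 to 39.7%) and 45.5% (45.2 to 45.8%) on the rest of each chromosome. When moved, 5.12 to 7.85% and 5.77 to 7.72% had one in the domains, and 3.77 to 4.26% and 5.45 to 5.93% on the rest of each chromosome. The number of partners, 400, is the same in both directions. With an ethanol share equal to that of the chromosome, the higher tamoxifen share of the first domain restates its lower ratio of calls and is no separate result.

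Calls of a single library, with no call of the other within 100 bp, numbered 347 of the ethanol calls (37.4%, interval 34.4 to 40.6%) and 302 of the tamoxifen calls (34.4%, 31.3 to 37.6%) in the H19-Igf2-Kcnq1ot1 domain. On the rest of chromosome 7 they were 35.8% of ethanol and 41.4% of tamoxifen calls. This order also follows from the ratio of calls and adds nothing to it. The Dlk1-Meg3 domain had 297 ethanol (25.04%, 22.7 to 27.6%) and 384 tamoxifen calls of this kind (29.9%, 27.5 to 32.5%), in the order of its chromosome, 26.0 and 32.7%. The first 140 kb of the chromosome 7 domain had the lowest sharing among its stretches of more than 40 kb. There 33.7% of ethanol calls had a partner, against 43.1% in the sparse 200 kb, 46.6% in the dense 320 kb and 42.9% in the last 160 kb. Of tamoxifen calls, 39.3% had one there, against 44.6, 49.6 and 40.9%. The stretches were drawn with the counts known, and the first also had the lowest log2 ratio of these, -0.35. The differences in sharing were not tested.

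The share with a partner was higher at higher scores in both domains, as they did on the rest of each chromosome. In the first domain 28.1% of ethanol calls in the lowest score class had a partner and 65.3% in the highest, and in the second 35.9 and 67.2%. Among partners within 20 bp, 67 of 400 on chromosome 7 and 105 of 623 on chromosome 12 had the same centre. The others lay to the right with tamoxifen in 163 and 260 cases and to the left in 170 and 258. The mean shifts, tamoxifen minus ethanol, of -0.60 and -0.096 bp are far under the 10 bp grid on which all starts and ends lie.

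**Figure D4:**
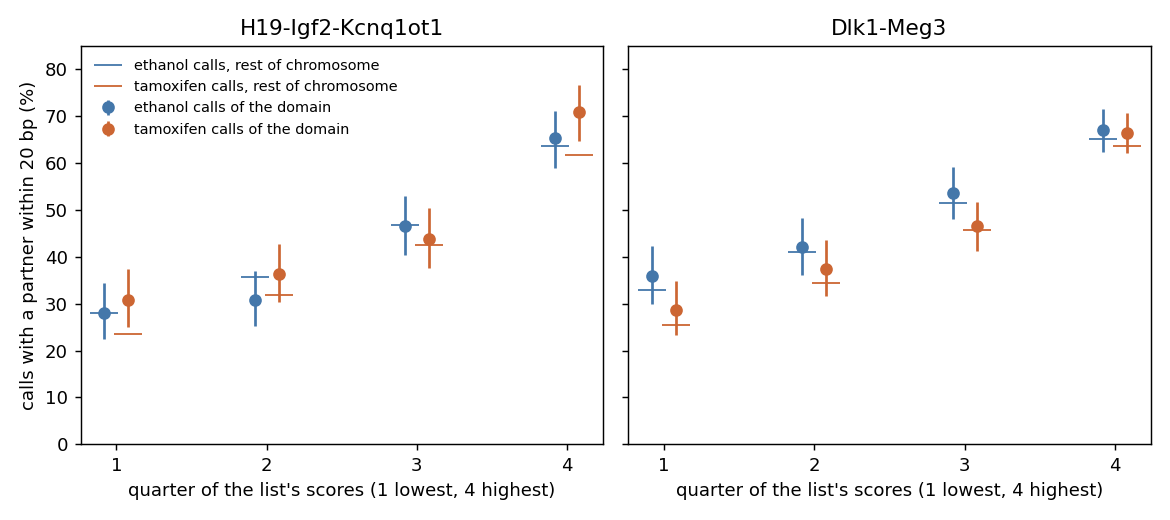
Share of calls with a call of the other library within 20 bp (y axis, %), by score class of the own list, 4 equal parts of all its calls (x axis), for the H19-Igf2-Kcnq1ot1 (left) and Dlk1-Meg3 (right) domains; points are the domain with 95% Wilson intervals and dashes are the rest of the chromosome. Shares of ethanol calls rise from 28.1 to 65.3% on the left and from 35.9 to 67.2% on the right.

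Nucleosomes were called closer together in both domains than on the rest of their chromosomes, in both libraries. Both domains also held more calls per 100 kb than the median window, so this is no comparison at equal density. In the H19-Igf2-Kcnq1ot1 domain successive centres lay a median of 470 bp apart in the ethanol list and 540 bp in the tamoxifen list, against 805 and 765 bp on the rest of chromosome 7. For Dlk1-Meg3 it was 445 and 422.5 bp, against 575 and 550 bp. Distances in the first domain were longer with tamoxifen, and those of its chromosome shorter. Both have the direction of the number of calls, lower in the domain and higher on the rest of the chromosome. Whether the number of calls accounts for their size was not tested. The share of successive calls that were neighbours was 42.0% with ethanol (Wilson interval 38.9 to 45.2%) and 40.3% with tamoxifen (37.1 to 43.6%) there, against 27.9 and 28.6% on the rest of the chromosome. The difference, -1.69 points (-6.22 to 2.84), was not detectable at this number of calls. With tamoxifen calls thinned at random until both lists were equally long, the difference was -4.59 points (-9.20 to 0.03). Thinning, done in a single random draw, breaks up pairs of neighbours, and this domain already had fewer calls with tamoxifen. The thinned value is therefore not a fairer comparison. For Dlk1-Meg3 the shares were 43.6% (40.8 to 46.5%) and 45.7% (43.0 to 48.5%), against 36.1 and 38.0%, a difference of 2.08 points (-1.84 to 6.00), which turned to -1.57 after thinning. Of the windows at least as dense, 4 of 19 on chromosome 7 and 18 of 24 on chromosome 12 had a higher neighbour share with ethanol, and 7 of 19 and 20 of 24 with tamoxifen. Their median shares were 36.8 and 38.5% with ethanol and tamoxifen on chromosome 7, below the domain. On chromosome 12 they were 46.7 and 49.4%, above the Dlk1-Meg3 domain, which was thus not closely spaced for its density by this measure.

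The regularity of the spacing was high in both domains and in both libraries. The number of pairs of calls 350 to 410 bp apart, about the distance of a nucleosome to the next but one, was divided by the number 260 to 320 bp apart, between repeats. This contrast was 2.27 with ethanol (125 and 55 pairs, interval 1.66 to 3.12) and 2.57 with tamoxifen (121 and 47 pairs, 1.84 to 3.61) in the H19-Igf2-Kcnq1ot1 domain. For chromosome 7 as a whole it was 1.43 and 1.58. In the Dlk1-Meg3 domain it was 2.16 (173 and 80 pairs, 1.66 to 2.82) and 2.13 (204 and 96 pairs, 1.67 to 2.71), against 1.38 and 1.52 for chromosome 12. Of the windows at least as dense, 0 of 19 on chromosome 7 and 0 of 24 on chromosome 12 had a higher contrast with ethanol, and 1 of 19 and 1 of 24 with tamoxifen. Those windows reached 1.85 and 1.78 with ethanol and 2.75 and 2.16 with tamoxifen. The intervals of ethanol and tamoxifen overlap widely within each domain. Pairs share calls, so the intervals are too narrow.

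Regular runs of at least 4 calls, with steps of 150 to 230 bp between centres, were found 11 times in the ethanol and 9 times in the tamoxifen list of the H19-Igf2-Kcnq1ot1 domain, or 11.9 and 10.2 per 1000 calls, against 3.87 and 3.71 on the rest of chromosome 7. The 19 windows at least as dense had medians of 7.63 and 6.30, and 0 and 2 of them had more than the domain. In the Dlk1-Meg3 domain there were 15 and 18 runs, or 12.6 and 14.0 per 1000 calls, against 6.30 and 7.30 on the rest of chromosome 12, and 7 and 8 of the 24 windows at least as dense had more. The longest run of the domain on chromosome 7 had 6 ethanol calls between centres 150104626 and 150105516, spaced 178 bp on average, and 5 of them had a tamoxifen partner. The same place held a tamoxifen run of 5 calls, from 150104641 to 150105346, spaced 176.2 bp. The strong call at chr7:150105301-150105391 described above is its last nucleosome.

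The longest run of the Dlk1-Meg3 domain, 7 ethanol calls from 111082781 to 111083941 spaced 193.3 bp, had 3 tamoxifen calls in its place, all of them partners. A run of 6 ethanol calls from 111477296 to 111478291 had a tamoxifen partner for each of its 6 calls. On chromosome 7, a run of 5 ethanol calls from 149807686 to 149808471, in the first 140 kb of the domain, had a single tamoxifen call in its place and 0 partners. Runs called in a single library were short. At most 4 successive ethanol calls and 5 successive tamoxifen calls lay over 100 bp from the other list with no call of it between them on chromosome 7, and 3 and 4 on chromosome 12. The most compact of these on chromosome 7 with ethanol, 4 calls from 150283471 to 150284721 with scores of 56.1 to 128.7, fell in a tamoxifen gap of 1775 bp.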

How the data were processed

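Each library has 1 list of called nucleosomes, with chromosome, start, end, name and a score, as deposited by the authors. The submitters' processing notes name Bowtie 0.12.9 and mm9. How nucleosomes were called and what a score means is not given in the sources used here. Scores as deposited run from 50.1 to 3250. Groups come from the sample titles. The members, lists and measures were chosen with earlier results of these data known.

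Domains were cut into steps of 20 kb from their start. Step ratios needed at least 10 calls in both libraries together and used a 1.5-fold limit, and the background is the other steps of the chromosome on the same grid. Domains were compared with windows of their own length tiled outward from them, those with 0 calls being left out, and for ratios and shares those under 100 and 50 calls. Ratios were scaled to the number of calls per list. Steps, calls, gaps and runs were named by fixed rules: the 3 densest, sparsest, highest and lowest steps, the 5 highest-scoring calls, and the longest gaps and runs, of which the text gives a part. Items outside these rules were chosen after their values were seen, among them the stretches, the first 80 kb, the omission of single steps, the windows at least as dense and the windows of all autosomes. Intervals are exact Poisson, exact Clopper-Pearson or Wilson. The functions were tested on simulated data. Work was done in Python 3.11.15 with scipy 1.17.1, pandas 2.3.3 and numpy 2.4.6, and plots in matplotlib 3.10.9.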

Additional observations from a re-analysis of the deposited data

How the results depend on the processing

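Of 56 alternatives, 35 stayed within the counting interval, or within 1.5 times for counts of steps. Where the interval holds 0, staying within it allows a change of sign, as for the Dlk1-Meg3 neighbour share below. A reversal was counted only for a value whose interval leaves out 0. Among ratios and differences between the libraries this was the log2 ratio of the H19-Igf2-Kcnq1ot1 domain alone, and 0 of its 6 alternatives turned it. The log2 ratio of the H19-Igf2-Kcnq1ot1 domain lay between -0.23 and -0.17 under 6 of 6, and that of Dlk1-Meg3 between -0.03 and 0.03. Calls at or above the median score raised the density over the chromosome median to 2.37 (ethanol) and 1.98 (tamoxifen) in the first domain and to 2.02 and 1.97 in the second. Without the outermost 100 kb it was 1.83 and 1.62 in the first and 1.73 with ethanol in the second. The share of ethanol calls with a partner was 28.4 and 36.3% within 10 bp, 53.9 and 65.4% within 40 bp, and 39.2 and 47.5% after thinning the tamoxifen list, which removes partners by construction. Thinning also breaks up pairs of neighbours, and moved the difference in neighbour share to -4.59 points in the first domain and -1.57 in the second, from -1.69 and 2.08. Steps over 1.5-fold on chromosome 7, 4 lower and 1 higher, became 4 and 0 on a grid moved by 10 kb, 0 and 0 at 50 kb, 1 and 0 with at least 20 calls, and 0 and 1 at 2-fold. On chromosome 12 the moved grid gave 1 lower and 1 higher in place of 0 and 0. For these changes the cause was not tested, apart from thinning. No paired analysis was possible because there is a single ethanol library and a single tamoxifen library.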
